A study of Bos taurus with 12 samples.

Results

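The genes described here sense unfolded protein in the endoplasmic reticulum or help to clear it. They are 9 of the 17983 gene rows in the table: the sensors ERN1, EIF2AK3 and ATF6, the transcription factor XBP1, the degradation factors EDEM1, SEL1L and SYVN1, and the folding factors DNAJC3 and CRELD2. They were chosen by symbol from that table, each symbol had 1 row, and all 9 passed the filter on low counts that left 12311 genes. In bovine cumulus-oocyte complexes matured with polystyrene nanoplastics none of the 9 passed the test against control, a test that called 0% of all genes. The 95% interval of every fold change of the 9 lay within 1.5-fold, as it did for 83.3% of all genes. The levels of SEL1L, EIF2AK3 and EDEM1 correlated with that of the chaperone HSPA5 from library to library. How many of all genes do so was not computed. Without the library Nanoplastics 1 Pearson's r was 0.78, 0.67 and 0.64 for the 3 genes, and none of these values passed the adjustment.

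Each sample was a pool of 50 bovine complexes matured in vitro in 4-well plates, an oocyte with its cumulus cells being one complex. The 6 control samples were matured in control medium and the 6 nanoplastics samples in medium with polystyrene particles of 50 nm at 3 µg/mL. No age or breed of the donor animals is stated in the labels. The samples came from 3 batches of bovine material, but the labels do not tie a sample to its batch, so values within batches could not be had. A pool mixes cumulus and oocyte RNA, so fewer cells of a type and less RNA per cell cannot be told apart.

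As background, 3 membrane proteins of the endoplasmic reticulum report unfolded protein. ERN1 (IRE1) is a kinase and ribonuclease that splices XBP1 mRNA, EIF2AK3 (PERK) is a kinase that slows translation by phosphorylating eIF2α, and ATF6 moves to the Golgi, where it is cut to release a transcription factor. HSPA5 (BiP), the main chaperone of this compartment, binds the sensors and is itself a target of the response. The products of the response include chaperones and the machinery of endoplasmic reticulum-associated degradation, which carries misfolded protein back to the cytosol for the proteasome. Cumulus cells secrete matrix protein during maturation, and how heavily they use this compartment was not measured here. The deposited values are counts per gene, so the spliced and unspliced forms of XBP1 mRNA cannot be told apart, nor can the activation of a sensor protein be seen.

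Total counts ran from 14167578 to 20008464 per library. Levels below are CPM (reads of a gene scaled to a common library size, with the TMM factors of edgeR), and they are not corrected for gene length, so they are compared between libraries and not between genes. The markers fixed for the tissue were present, at 9177 to 10781 CPM summed over 13 granulosa and cumulus genes in control and 9638 to 10926 CPM in nanoplastics libraries, and at 913 to 1118 CPM and 903 to 1141 CPM over 13 oocyte genes. SERPINE2, at a mean of 6578 CPM, made up most of the granulosa and cumulus sum. UCHL1, at a mean of 730 CPM, made up most of the oocyte sum. FIGLA was the one oocyte marker that did not pass the count filter. Of the theca and stromal list, 12 genes summed to 1282 to 1937 CPM and 1608 to 1947 CPM, mostly COL1A1 and LUM. The theca gene INSL3 averaged 152 CPM, while CYP17A1 and LHCGR reached at most 0.223 and 0.107 CPM in any library. Leukocyte markers summed to at most 15.4 CPM and endothelial markers to at most 53.3 CPM in any library. Red blood cell markers ran from 2.68 to 104 CPM in control and from 3.74 to 354 CPM in nanoplastics libraries, nearly all of it HBA, with HBB at 0 in all 12.

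Among the sensors, ERN1 (ENSBTAG00000016799) was the least counted, with 225 to 348 reads per library. Its level had a lowest, median and highest value of 14.3, 16.5 and 18.2 CPM in control and 13.7, 16.6 and 20.8 CPM in nanoplastics libraries. Nanoplastics 3 held the highest level of all and Nanoplastics 6 the lowest, so the control range lay inside the nanoplastics range. The means were 16.7 ± 1.47 and 16.6 ± 2.39 CPM (SD, n = 6 each), a log2 fold change of −0.0057 (SE 0.10, 95% interval −0.22 to 0.21). It ran from −0.09 without Nanoplastics 3 to 0.04 without Nanoplastics 6. Its paralog ERN2 had 0 counts in all libraries.

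EIF2AK3 (ENSBTAG00000000184) had the second largest log2 fold change of the 9. Levels of 63.3, 72.1 and 81.6 CPM were the lowest, median and highest in control, against 73.4, 76.5 and 90.5 CPM in nanoplastics libraries. Each of the 6 nanoplastics libraries exceeded the control median, and 2 of them, Nanoplastics 1 and 2, above the highest control. With means of 72.2 ± 7.79 and 79.1 ± 6.34 CPM (SD, n = 6 each), the log2 fold change was 0.13 (SE 0.08, 95% interval −0.03 to 0.30), and edgeR's quasi-likelihood test gave an unadjusted p of 0.111 and an adjusted p of 0.999. Without Control 3 it was 0.17 (unadjusted p = 0.0487, adjusted p = 0.998).

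ATF6 (ENSBTAG00000005227) varied the least over the 12 libraries, by 1.32-fold from the lowest to the highest. Its lowest, median and highest levels were 254, 276 and 293 CPM in control and 230, 284 and 304 CPM in nanoplastics libraries. Nanoplastics 6 was the low value, and the other 5 lay between 274 and 304 CPM. The log2 fold change was 0.013 (SE 0.07, 95% interval −0.13 to 0.16). Its sign turned in 6 of the other settings and left-out libraries. Among them were total-count scaling in place of TMM, at −0.023, and the fits without Control 5, at −0.014, and without Nanoplastics 1, at −0.011.

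XBP1 (ENSBTAG00000005970), the transcription factor downstream of ERN1, had lowest, median and highest levels of 106, 129 and 160 CPM in control and 134, 142 and 155 CPM in nanoplastics libraries. Controls 5 and 2 were the low libraries and Control 3 the highest, so the nanoplastics range lay inside the control range. Each of its 6 nanoplastics values exceeded the control median. The means were 130 ± 21.8 and 143 ± 8.17 CPM (SD, n = 6 each), and the log2 fold change was 0.13 (SE 0.09, 95% interval −0.07 to 0.33). It was 0.08 without Control 5 and also without Control 2, and 0.20 without Control 3 (edgeR unadjusted p = 0.0394, adjusted p = 0.998).

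**Figure D1:**
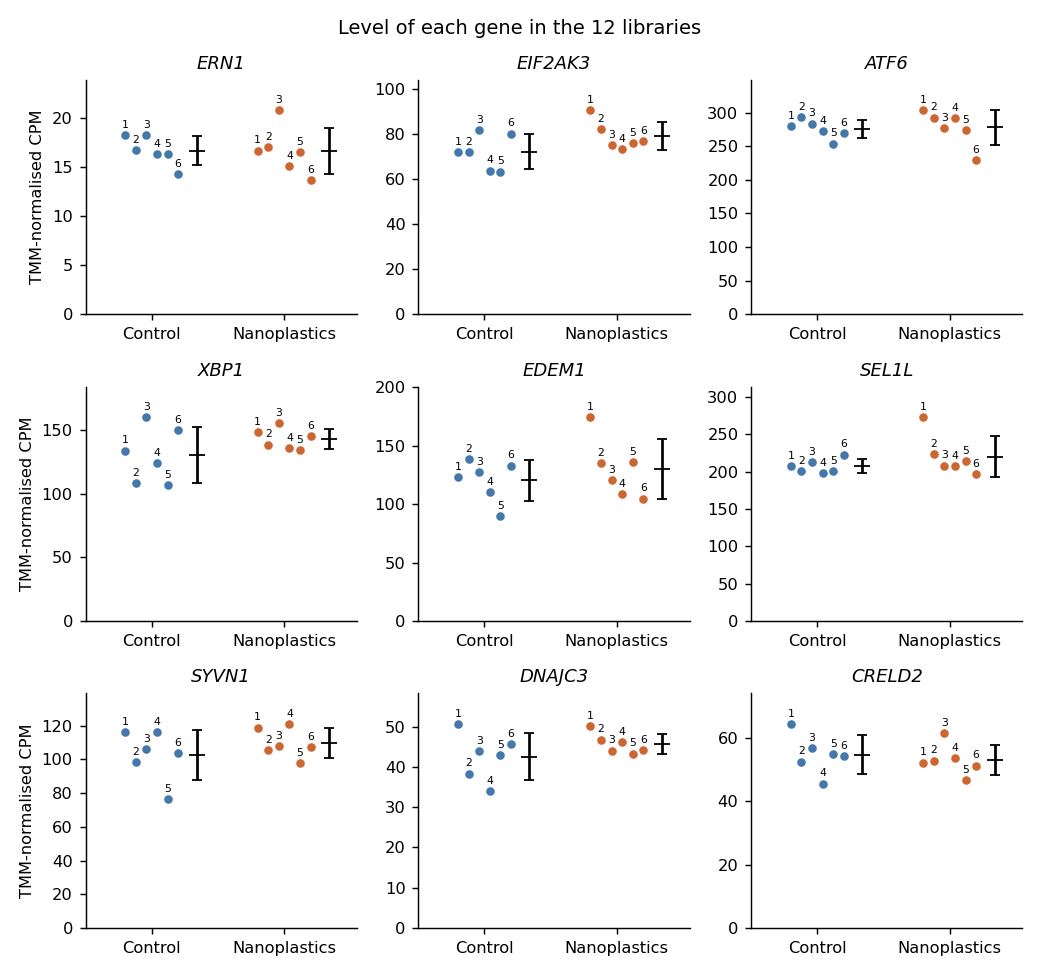
TMM-normalised CPM of each of the 9 genes (y axis from 0) in the 6 control and 6 nanoplastics libraries; a point is a library, its number is the replicate number, and the black bar is the mean with 1 SD. The ranges of the 2 groups overlap in every panel, and Nanoplastics 1 is the highest point for EIF2AK3, ATF6, EDEM1 and SEL1L.

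The degradation factors stood highest in Nanoplastics 1 for EDEM1 and SEL1L. EDEM1 (ENSBTAG00000012904), a lectin-like protein that hands misfolded glycoproteins to the degradation machinery, had the widest spread of the 9, at 1.94-fold over the 12 libraries. It had 89.9, 125 and 139 CPM as lowest, median and highest in control and 105, 128 and 175 CPM in nanoplastics libraries. Control 5 was the lowest library and Nanoplastics 1 the highest, with the others between 105 and 139 CPM. Its log2 fold change was 0.11 (SE 0.12, 95% interval −0.15 to 0.37), and it was 0.011 without Nanoplastics 1 and 0.03 without Control 5.

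SEL1L (ENSBTAG00000008083), the adaptor that holds the ubiquitin ligase SYVN1 in its complex, was tightly grouped in control at 198, 204 and 223 CPM as lowest, median and highest. In nanoplastics libraries the same values were 196, 211 and 273 CPM. Nanoplastics 1 alone stood well above the control range, Nanoplastics 2 reached 223 CPM, and the other 4 lay between 196 and 213 CPM. The log2 fold change was 0.09 (SE 0.07, 95% interval −0.07 to 0.25), and 0.020 without Nanoplastics 1.

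SYVN1 (ENSBTAG00000005076), the ligase itself (HRD1), did not single out Nanoplastics 1. Its lowest, median and highest levels were 76.2, 105 and 116 CPM in control and 97.6, 108 and 121 CPM in nanoplastics libraries. Control 5 was the low library, and without it the log2 fold change of 0.09 (SE 0.09, 95% interval −0.10 to 0.29) became 0.016.

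Of the folding factors, DNAJC3 (ENSBTAG00000012065), a co-chaperone of HSPA5 also known as an inhibitor of EIF2AK3, had lowest, median and highest levels of 33.9, 43.4 and 50.7 CPM in control and 43.3, 45.1 and 50.1 CPM in nanoplastics libraries. The nanoplastics range again lay inside the control range, which was set by Control 4 and Control 1. The log2 fold change was 0.10 (SE 0.08, 95% interval −0.08 to 0.28), and 0.05 without Control 4. CRELD2 (ENSBTAG00000047801), a secreted protein of the compartment known in mouse and human cells as a target of the response, was the only one of the 9 whose median was lower with nanoplastics. It had 45.6, 54.6 and 64.4 CPM as lowest, median and highest in control and 46.7, 52.5 and 61.7 CPM in nanoplastics libraries. A single nanoplastics library, Nanoplastics 3, exceeded the control median. The log2 fold change was −0.05 (SE 0.08, 95% interval −0.22 to 0.13), and it was −0.00020 without Control 1 and −0.10 without Nanoplastics 3.

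Set together, 0 of the 9 passed edgeR's quasi-likelihood test at an adjusted p of 0.05 (Benjamini-Hochberg, over all 12311 genes), a test that called 0% of all genes. Without adjustment 0 of the 9 had a p under 0.05, against 259 or 2.1% of all genes, and without Control 3 there were 2, EIF2AK3 and XBP1, against 1.97%. DESeq2 and limma-voom also called 0 genes after adjustment, with 319 and 232 genes at an unadjusted p under 0.05. A positive log2 fold change was found for 7 of the 9, against 50.5% of all genes. The median log2 fold change was 0.09 for the 9 and 0.0013 for all genes tested. For the 9 it was 0.020 without Nanoplastics 1 and 0.03 without Control 5, with 6 of 9 positive in each case. The control median was exceeded by 6 of 6 nanoplastics libraries for 2 of the 9, EIF2AK3 and XBP1, against 3.32% of all genes. Ranges of the 2 groups did not overlap for 0 of the 9 and 0.0731% of all genes. The adjusted p was 0.999 for each.

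The intervals bound what these libraries allow. Every one of the 9 had a 95% interval within 1.5-fold, as did 83.3% of all genes, and the outermost bounds of the 9 were a fold of 0.857 for CRELD2 and of 1.296 for EDEM1. The spread between libraries exceeded counting error for all 9 in both groups. For ERN1, counting error was 5.91% of the level and the coefficient of variation was 8.82% in control and 14.3% in nanoplastics libraries, whereas for ATF6 the corresponding values were 1.45%, 4.91% and 9.39%. The authors' deposited table of this contrast lists log2 fold changes from −0.05 for CRELD2 to 0.13 for XBP1 and an adjusted p of 0.999928 for each of the 9.

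**Figure D2:**
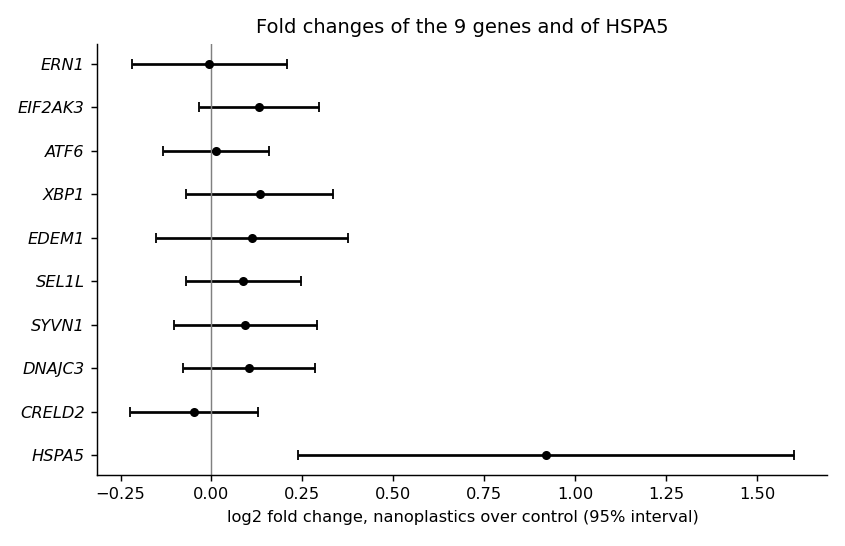
Log2 fold change of nanoplastics over control (x axis) for the 9 genes and for HSPA5, fitted with edgeR over 6 libraries a group; points are estimates and bars 95% intervals. The intervals of all 9 genes include 0 and lie within −0.22 to 0.37, and that of HSPA5 starts at 0.24.

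The chaperone HSPA5 (ENSBTAG00000007662) was set beside the 9 genes in each library. Its lowest, median and highest levels were 812, 924 and 1222 CPM in control and 954, 1384 and 4436 CPM in nanoplastics libraries. Nanoplastics 1, 2 and 5, at 4436, 2018 and 1779 CPM, lay above every control, and the other 3 inside the control range. Over the 12 libraries HSPA5 spanned 5.46-fold, where the 9 genes spanned 1.32-fold to 1.94-fold. Its log2 fold change was 0.92 (SE 0.32, adjusted p = 0.999), and 0.45 without Nanoplastics 1.

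Correlations of log2 CPM over the 12 libraries were computed for 45 relations, 9 with HSPA5 and 36 between the genes. Each had a two-sided permutation test of 100000 resamples and adjustment over the 45. Relations of HSPA5 with other genes, and pairs of other genes, were not computed. No share over all genes therefore stands beside these values. SEL1L had r = 0.93 with HSPA5 (permutation p = 4e-04, adjusted p = 0.00975; rho = 0.87, p = 4.4e-04, adjusted p = 0.0099). EDEM1 had r = 0.81 (permutation p = 5.2e-04, adjusted p = 0.00975; rho = 0.68, p = 0.0186, adjusted p = 0.111). EIF2AK3 had r = 0.78 (permutation p = 9.6e-04, adjusted p = 0.0108; rho = 0.94, p = 3e-05, adjusted p = 0.00135). The slopes were shallow, and per log2 unit of HSPA5 the fitted line rose by 0.17 log2 units for SEL1L, by 0.28 for EDEM1 and by 0.16 for EIF2AK3.

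The adjusted calls of Pearson's r depended on Nanoplastics 1, and Spearman's rho was not computed without that library. Without it, r was 0.78 for SEL1L, 0.64 for EDEM1 and 0.67 for EIF2AK3, with unadjusted permutation p of 0.00512, 0.0360 and 0.0246, and 0 of the 45 relations passed the adjustment (smallest adjusted p = 0.203). With Nanoplastics 1 and 2, the libraries farthest from the median of HSPA5, both left out, r was 0.67 for SEL1L (permutation p = 0.0310), 0.62 for EDEM1 (p = 0.0556) and 0.60 for EIF2AK3 (p = 0.0651). The fall in r was 0.93 to 0.67 for SEL1L, 0.81 to 0.62 for EDEM1 and 0.78 to 0.60 for EIF2AK3, and the p of the last 2 was above 0.05 with these 10 libraries. Within the 6 control libraries alone, r with HSPA5 was 0.93 for SEL1L (exact permutation p = 0.00972, adjusted p = 0.219), 0.93 for EIF2AK3 (exact p = 0.0181, adjusted p = 0.271) and 0.68 for EDEM1 (exact p = 0.132, adjusted p = 0.594). Within the 6 nanoplastics libraries they were 0.95 (exact permutation p = 0.00417, adjusted p = 0.0833), 0.93 (exact p = 0.0125, adjusted p = 0.141) and 0.97 (exact p = 0.00556, adjusted p = 0.0833). None of the relations within a group passed the adjustment over 45, but 6 libraries allow an exact p no smaller than 0.00139, which for a single relation becomes 0.0625 after adjustment over 45, so a lone relation could not pass.

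The other 6 genes gave weaker values with HSPA5 that did not pass. XBP1 had r = 0.37 (permutation p = 0.245, adjusted p = 0.440; rho = 0.67, adjusted p = 0.111), with 0.85 in control (exact permutation p = 0.0458, adjusted p = 0.299) and 0.0035 in nanoplastics libraries (exact p = 0.994). ATF6 had r = 0.48 (rho = 0.39), DNAJC3 0.46 (rho = 0.45), SYVN1 0.26 (rho = 0.021) and ERN1 0.03 (rho = 0.13), with permutation p of 0.118, 0.133, 0.366 and 0.919 for r. CRELD2 alone was negative, at r = −0.22 (permutation p = 0.467, adjusted p = 0.700; rho = −0.17). In Nanoplastics 1, where HSPA5 stood at 4436 CPM, CRELD2 was at 52.2 CPM and ERN1 at 16.7 CPM, both inside their control ranges.

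Red blood cell markers, which are nearly all HBA here, were also highest in Nanoplastics 1, 2 and 5, at 354, 240 and 138 CPM, the libraries where HSPA5 was highest. Controls 2 and 6 followed at 104 and 68.2 CPM, and HBB was at 0 in all 12 libraries. The TMM factor of Nanoplastics 1, 0.929, was the lowest of the 12. The part of these values in the relations with HSPA5 was not tested.

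**Figure D3:**
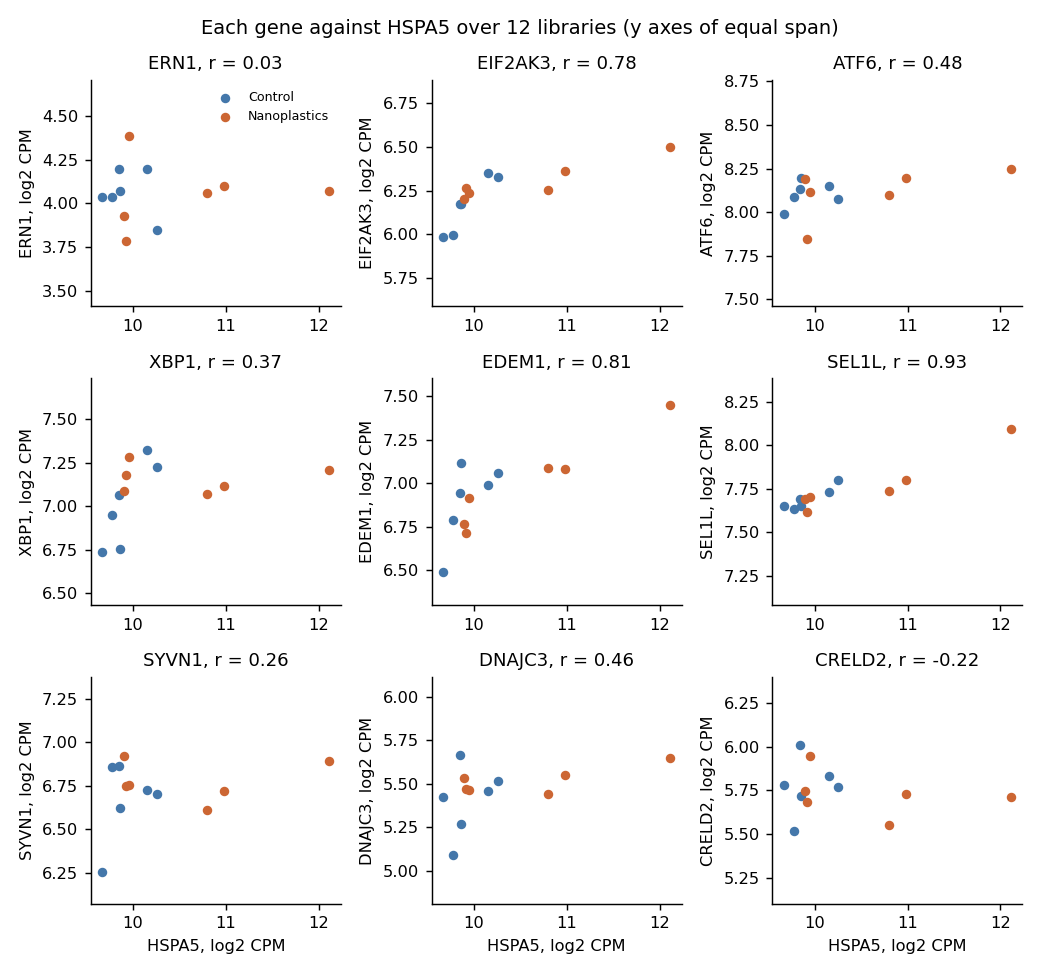
Log2 CPM of each of the 9 genes (y axis, with the same span in every panel) against log2 CPM of HSPA5 (x axis); points are libraries, blue for control and orange for nanoplastics, and r is Pearson's over 12 libraries. SEL1L, EDEM1 and EIF2AK3 rise with HSPA5, with Nanoplastics 1 far to the right, while ERN1 and CRELD2 show no rise.

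Between the 9 genes, 34 of 36 pairs had a positive r, with a median of 0.37. The same values over pairs of all genes were not computed, so these have no background beside them. The adjustment was passed by 3 pairs, all among SEL1L, EDEM1 and EIF2AK3: EDEM1 with SEL1L (r = 0.80, permutation p = 0.0014, adjusted p = 0.0126; rho = 0.71, adjusted p = 0.104), EIF2AK3 with EDEM1 (r = 0.78, p = 0.00346, adjusted p = 0.0260; rho = 0.56, adjusted p = 0.278) and EIF2AK3 with SEL1L (r = 0.78, p = 6.5e-04, adjusted p = 0.00975; rho = 0.76, adjusted p = 0.0614). Without the 2 libraries farthest from the median of the first-named gene, Control 5 and Nanoplastics 1 in each case, r was 0.65 (permutation p = 0.0473), 0.43 (p = 0.220) and 0.70 (p = 0.0197), so for EIF2AK3 with EDEM1 the relation over 12 libraries rests on those libraries. For that pair r was 0.77 in control (exact permutation p = 0.0597, adjusted p = 0.299) and 0.87 in nanoplastics libraries (exact p = 0.0361, adjusted p = 0.250). Most of the other pairs kept their sign without the 2 farthest libraries, but some did not. The largest turn was EDEM1 with SYVN1, from 0.42 to −0.74 without Control 5 and Nanoplastics 1 (unadjusted permutation p = 0.0149). EIF2AK3 with XBP1 just missed, at r = 0.73 (permutation p = 0.00786, adjusted p = 0.0505; rho = 0.77, adjusted p = 0.0614). The partners SEL1L and SYVN1, which act in one complex, had r = 0.30 (permutation p = 0.259, adjusted p = 0.448; rho = 0.028), and the sensor ERN1 and its substrate XBP1 had r = 0.14 (p = 0.662, adjusted p = 0.876; rho = 0.18).

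A few libraries held most of the extreme positions. Nanoplastics 1 was the highest library for 4 of the 9 genes and lay above the median of the 12 libraries for 8. Control 5 was the lowest for 4 (EIF2AK3, XBP1, EDEM1 and SYVN1) and lay above that median for 1 of 9, as did Control 4. Nanoplastics 6 was the lowest for 3 (ERN1, ATF6 and SEL1L). On the log2 scale the SD over all 12 libraries was below that of the median gene, 0.18, for 6 of the 9, and EDEM1 had the largest at 0.24.

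**Figure D4:**
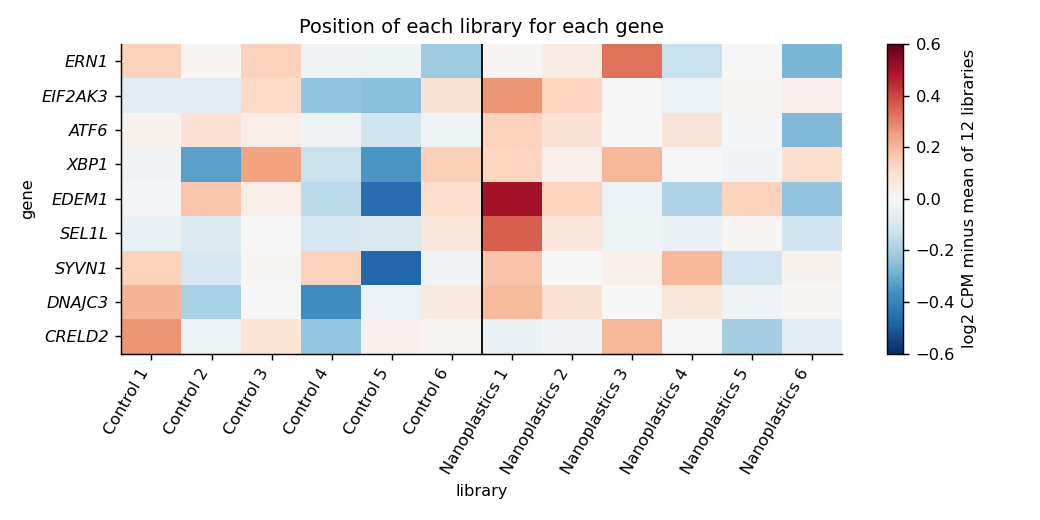
Log2 CPM of each of the 9 genes (rows) in each library (columns) minus the mean of that gene over the 12 libraries, in color; the black line parts control from nanoplastics. Nanoplastics 1 is red for EDEM1 and SEL1L, Control 5 is blue for EDEM1, SYVN1 and XBP1, and no row separates the groups.

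The genes whose pattern was most like the mean z-score of the 9 over the 12 libraries were SLC1A5, a glutamine transporter (r = 0.90), AMZ2 (r = 0.90), RAPGEF2 (r = 0.89), MB21D2 (r = 0.88), PAM, which amidates peptide hormones (r = 0.88), and UBE2S, a ubiquitin-conjugating enzyme (r = 0.87). DENND2C (r = 0.87), IGSF9B (r = 0.87), SLC7A1, a transporter of cationic amino acids (r = 0.86), and PCBP1 (r = 0.86) completed the 10. They were picked as the highest r among all genes tested, so the values describe these libraries and carry no test.

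The wider pathway was read from 5 lists. Genes that work with the sensors had 15 of 22 tested members positive with a median log2 fold change of 0.012, and 0 had an unadjusted p under 0.05, against 2.1% of all genes. Without Nanoplastics 3, 4 or 6 the number was 2 of 22, against 3.58%, 3.9% and 3.62% of all genes. It was also 2 without Control 2, against 3.26%. WFS1, a membrane protein of the compartment, had 0.47 (95% interval −0.03 to 0.98) with its highest level, 53.4 CPM, in Nanoplastics 1, and 0.25 without that library. PPP1R15A (GADD34), which reverses the EIF2AK3 signal, had 0.24 (−0.03 to 0.50) and, without Nanoplastics 1, 0.14. RTCB, the ligase that joins spliced XBP1 mRNA, had −0.12 (−0.28 to 0.05). TMBIM6, the most counted gene of that list, had 0.0050 (−0.11 to 0.12), a value whose sign turned with upper quartile or total-count scaling.

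Other genes of endoplasmic reticulum-associated degradation had 26 of 38 members positive with a median of 0.03, and again 0 passed the adjustment. Unadjusted p was under 0.05 for 4 of 38, 3 higher and 1 lower, against 2.1% of all genes. Without Nanoplastics 1 it was under 0.05 for 1 of 38, against 1.14% of all genes. Without Nanoplastics 3 or 4 it was under 0.05 for 5 of 38, against 3.58% and 3.9%. HERPUD1, a scaffold of the SYVN1 complex, had levels of 59.4 to 104 CPM in control and 63.5 to 275 CPM in nanoplastics libraries. Its high libraries were Nanoplastics 1, 5 and 2, at 275, 161 and 150 CPM, and the log2 fold change was 0.79 (SE 0.31, unadjusted p = 0.0205, adjusted p = 0.999 by edgeR). Without Nanoplastics 1 it was 0.45 (unadjusted p = 0.0740). RHBDD1, a rhomboid protease, had 0.38 (SE 0.15, adjusted p = 0.999) and UFD1, a cofactor of the VCP segregase, 0.15 (SE 0.06, adjusted p = 0.999).

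FAM8A1, described in human cells as a component of the SYVN1 complex and the most counted gene of that list, was the lower one. It stood at 713 to 815 CPM in control and 661 to 712 CPM in nanoplastics libraries, means of 753 ± 40.4 and 692 ± 21.6 CPM (SD, n = 6 each), and the ranges just failed to meet. Such a separation occurred for 9 of the 12311 genes (0.0731%). The log2 fold change was −0.12 (SE 0.05, unadjusted p = 0.0393, adjusted p = 0.999 by edgeR). The unadjusted p was above 0.05 without Control 1, 4 or 6 or Nanoplastics 1, 5 or 6, with log2 fold changes of −0.14 to −0.10 over the left-out libraries. With RLE size factors (712 CPM the lowest control, 714 CPM the highest nanoplastics library) or total-count scaling (719 and 725 CPM) the ranges overlapped, and with upper quartile scaling they did not.

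Chaperones and folding enzymes had 14 of 27 members positive with a median of 0.04. HSPA5 was the 1 member of 27 with an unadjusted p under 0.05, against 2.1% of all genes. The number was 5 of 27 without Nanoplastics 3 or 6, against 3.58% and 3.62% of all genes. It was 3 of 27 without Nanoplastics 4, against 3.9%, and 1 or 2 without any other library. The largest log2 fold change of this list was that of ERO1A, at 1.01 (95% interval −0.16 to 2.18). Its levels were 12.1 to 54.4 CPM in control and 16.7 to 170 CPM in nanoplastics libraries. HSP90B1 (GRP94) had 0.26 (95% interval −0.03 to 0.55), or 0.10 without Nanoplastics 1, and ERP29 had −0.16 (−0.31 to 0.0039). The integrated stress response, the branch that follows EIF2AK3 and related kinases, had 15 of 17 members positive and the highest median of the 5 lists, 0.22, with 0 at an unadjusted p under 0.05. Without Nanoplastics 1 it again had 15 of 17 positive, and the median was 0.11. Unadjusted p was under 0.05 for 4 of 17 without Nanoplastics 4, against 3.9% of all genes. It was under 0.05 for 3 of 17 without Nanoplastics 3 or 6, against 3.58% and 3.62%. In these 3 fits the median was 0.27 to 0.28. Without any other library the number was 0 or 1. TRIB3, a pseudokinase, had 0.99 (95% interval −0.07 to 2.05) at 1.28 to 6.54 CPM in control and 3.01 to 19.97 CPM in nanoplastics libraries. The serine synthesis enzymes PSAT1 and PHGDH had 0.78 (−0.12 to 1.68) and 0.65 (−0.10 to 1.40), and EIF4EBP1, the most counted gene there, 0.07 (−0.10 to 0.25). Without Nanoplastics 1 the value was 0.51 for TRIB3, 0.36 for PSAT1 and 0.22 for PHGDH, and for EIF4EBP1 it was 0.011 without Control 5. Translocation and N-glycosylation genes had 12 of 25 positive and a median of −0.0035. In that list 2 of 25 had an unadjusted p under 0.05 without Control 1 or Nanoplastics 5, against 1.42% and 1.6% of all genes. With all 12 libraries 1 member had an unadjusted p under 0.05, against 2.1% of all genes. That member was SSR2, a subunit of the translocon-associated complex, at 0.16 (SE 0.07, adjusted p = 0.999 by edgeR), whose unadjusted p was above 0.05 without Control 5, Nanoplastics 1 or Nanoplastics 2. It was followed by SRPRB at 0.14 (95% interval −0.00062 to 0.28) and DDOST at −0.07 (−0.18 to 0.04), with the most counted SEC61A1 at 0.03 (−0.11 to 0.16), or −0.021 without Control 5. For all genes tested, 50.5% were positive, the median was 0.0013 and 2.1% had an unadjusted p under 0.05.

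**Figure D5:**
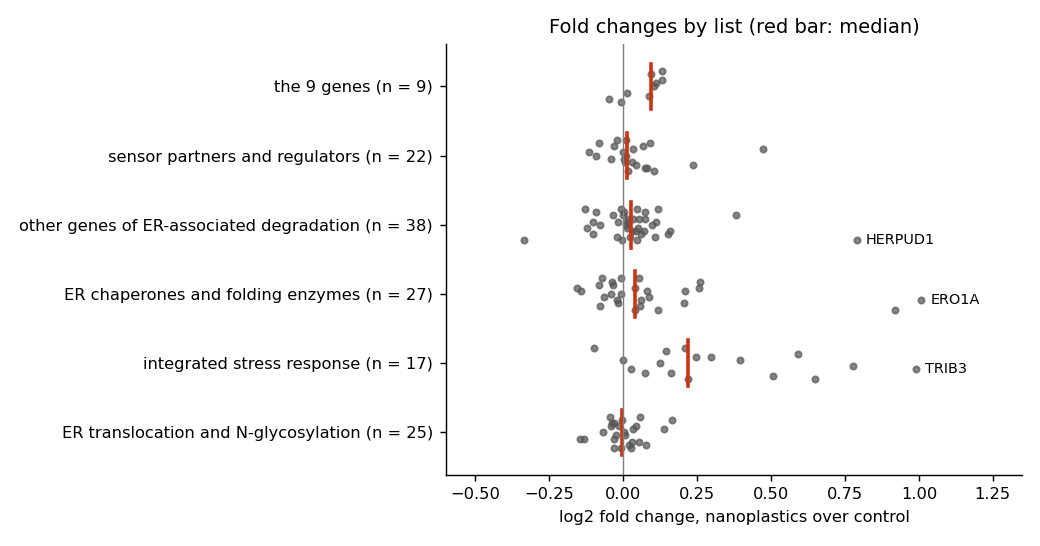
Log2 fold change of nanoplastics over control (x axis) for each tested gene of the 9 and of 5 further lists (rows, with the number tested); points are genes and the red bar is the median. The medians of the 9 genes and of the integrated stress response are 0.09 and 0.22, those of the other lists lie between −0.0035 and 0.04, and the highest gene of a list is named where a value exceeds 0.7.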

How the data were processed

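RNA of the 12 pools was read as pairs of 150 bases (the labels' protocols). The submitters' processing notes list Trim Galore 0.4.5, STAR 2.5.4b and DESeq2 but not what each did. Neither counter, strand setting, build nor annotation is given in the sources, so antisense or overlapping genes cannot be told apart.

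The authors deposited raw counts for 18057 rows, log2 values derived from them, and a contrast table with p-values, log2 fold changes and the mean count of each group as a signal column. That table has 4 columns of other groups, not used. After 74 exact copies were dropped, filterByExpr (minimum count 10, total 15) kept 12311 genes. Counts were tested with edgeR 4.0.16 in R 4.3.3 (TMM, glmQLFit, glmQLFTest, two-sided, Benjamini-Hochberg, threshold 0.05). Log2 CPM used a prior count of 2. Correlations used Python 3.11.15 and numpy 2.4.6. Alternatives used DESeq2 1.42.0 and limma 3.58.1. The edgeR and correlation procedures were tested on simulated data.

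Genes and lists were chosen with earlier results of these data known. Named genes were the 9, HSPA5, of each list the 3 of smallest p and the most counted, and the 10 most alike in pattern. ERO1A was added to these for its fold change, the largest of the chaperone list. Replicate numbers gave deviations correlated at −0.265 to 0.43, so they were not taken as pairs. No pair of libraries in a group agreed within counting noise (smallest chi-square per degree of freedom 5.64). The edgeR p-values set the difference between groups against the spread between these pools. The permutation p-values come from reshuffling the libraries. The tests and intervals take the pools as independent. The 3 batches of material are not in the models, so any likeness of pools from one batch is not accounted for. Intervals are those of the fitted model. Reference sequences of these genes were not used here.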

Additional observations from a re-analysis of the deposited data

Results flagged for a closer look

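In each group of 6 libraries the distance from the highest or lowest library to the next one was taken as a share of the whole range, for the 9 genes, HSPA5 and 6 marker lists. Of 32 groups of values 1 was set apart, and chance sets apart about 1 in 20. It was ATF6 in Nanoplastics 6, at 7.85 log2 CPM against 8.10 to 8.25 in the other nanoplastics libraries, a share of 0.63 that just exceeds the 95% critical value of Dixon's test. Without that library the log2 fold change of ATF6 was 0.06.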

How the results depend on the processing

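Across 9 other settings and 12 left-out libraries, 0 genes were called over all genes and none of the 9 passed. The log2 fold change of ATF6 turned negative with total-count scaling (−0.023) and with the deposited log2 values (−0.0061), both added after seeing the data. Leaving out 1 library gave ranges of −0.014 to 0.057 for ATF6 and −0.085 to 0.040 for ERN1, while the other 7 kept their sign. TMBIM6 turned negative with upper quartile (−0.0063), total count (−0.030), a minimum count of 30 (−0.00093) and the deposited log2 values (−0.0088), and SEC61A1 with total count (−0.0071). Without 1 library TMBIM6 ran from −0.017 to 0.021 and SEC61A1 from −0.021 to 0.041. The number of genes at an unadjusted p under 0.05, 259 in the main setting, ran from 141 (without Nanoplastics 1) to 482 (without Nanoplastics 4). Of the 45 relations, 6 passed with Pearson's r and 2 with Spearman's rho, and leaving out 1 library gave 0 to 7 with Pearson's r. As deviations with the replicate block, which the numbers do not support as pairs, 0 passed (6 differences, with which a lone relation cannot pass; smallest adjusted p = 0.125). In it r with HSPA5 was −0.38 for ERN1 and −0.10 for DNAJC3, against 0.94 for SEL1L. ERN1 was also negative with upper quartile scaling (−0.053) and, over left-out libraries, ran from −0.062 to 0.16. The replicate block changed no call among the fold changes. The cause of these shifts was not tested. Depth limits ERN1 most, with a lowest count of 225.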

Other observations

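The spread within a group also differed from gene to gene, and these SDs of log2 CPM (n = 6 each) were not tested. It was wider in control for 5 of the 9 genes and wider in nanoplastics libraries for 4. XBP1 had an SD of 0.24 in control and 0.08 in nanoplastics libraries, DNAJC3 0.20 and 0.08, and SYVN1 0.22 and 0.12. In the other direction SEL1L had 0.06 and 0.17 and ATF6 0.07 and 0.14. DNAJC3 and CRELD2 had r = 0.95 in control (exact permutation p = 0.00972, adjusted p = 0.219) and 0.04 in nanoplastics libraries (exact p = 0.940), and the difference between these values was not tested.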
